A study of Saccharomyces cerevisiae with 176 samples.

Results

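The large subunit of the budding yeast ribosome holds proteins numbered from 1 upwards, and most of them are encoded by a pair of paralogous genes, an A copy and a B copy. Described here are the 57 genes from RPL1A to RPL33B, out of 6692 genes in the deposited table, chosen by gene symbol alone and not by any measured value. They form 25 pairs and 7 single-copy genes (RPL3, RPL5, RPL10, RPL25, RPL28, RPL30 and RPL32). All 57 had the same coordinates in the authors' annotation (sacCer3) and in the RefSeq annotation of the same assembly (R64). They lie on 14 of the chromosomes, 32 of them on the plus strand, and 37 carry an intron, which is rare among genes of this yeast. Copies of a pair mostly lie on different chromosomes, so gain or loss of a chromosome can change the dose of 1 copy and leave the other.

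Ribosomal protein genes are transcribed at very high rates in growing yeast. They are switched on together by the activators Rap1, Fhl1, Ifh1 and Sfp1 when nutrients are plentiful, and they are repressed together in stress and starvation, as part of the environmental stress response. Several members also regulate themselves or their paralogs: Rpl30 protein holds back splicing of its own transcript, Rpl22 protein holds back splicing of RPL22B, and the amount of Rpl9 protein bears on the 3' end of the RPL9B transcript.

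RNA was sequenced in libraries that fall into 81 groups. Aneuploid strains with several chromosomes gained or lost (named A1 to A38) and the euploid strain 2N, all of the S288C background, were grown at 25 °C in rich medium with 2% glucose and sampled in log phase. These batch cultures came in experiments exp1 to exp6. The 8 libraries of 2N were spread over exp1 (4), exp2 (2) and exp3 (2) and stood beside 36 libraries of 10 aneuploid strains. exp4 (18 libraries), exp5 (24) and exp6 (24) held aneuploid strains only. A phosphate-limited chemostat at a dilution rate of 0.17 per h gave 18 libraries of 9 aneuploid strains and 2 of 2N. Populations of pooled meiotic progeny, aneuploid from triploid parents and euploid from diploid parents, all carrying the plasmid pRS315-STE2pr-spHIS5, were sampled by a Tsai and a dilution protocol, with 3 libraries each, beside 3 libraries of exponentially growing haploid WT S288C. Haploid WT S288C cells were also followed every 2 h from 0 to 26 h, in the same rich medium at 25 °C (2 libraries per time). Haploid W303 cells were sampled 40 min after addition of 500 mM NaCl at 30 °C (3 libraries), and no untreated W303 library was used here.

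All values are TPM, an abundance scaled by transcript length and set to a fixed total per library, or differences on the scale of log2(TPM + 1). Read depth is unknown. Libraries of exp1 to exp4 were made from total RNA, and the TPM of all listed genes summed to only 5.03 to 12.3% of that fixed total there. In exp5 and exp6 it summed to 95.0 to 99.6%, and in the time course to between 15.4 and 97.2%. Absolute TPM is therefore compared only within a set. Haploid-specific genes (GPA1, STE4, STE18, FUS3, RME1 and HO) had medians of 0 to 1.36 TPM in 2N of exp1 to exp3. Their medians were 39.0 to 153 TPM in exponential WT haploids and 1.76 TPM (HO) to 95.8 TPM (RME1) in 2N of the chemostat. Summed TPM was 5.03 to 9.65% of the fixed total in 2N of exp1 to exp3. It was 98.2 to 98.9% in 2N of the chemostat and 87.9 to 91.3% in exponential WT. These levels are therefore on different scales, and no difference between the sets is read from them. Labels do not say which libraries came from separate cultures, so p-values measure the spread between libraries, which may in part be technical.

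The copies of a pair are so alike that many reads can match both. Coding identity between A and B ran from 78.9% (RPL22) to 99.4% (RPL1), with a median of 93.7%. In 7 pairs both copies encode the same protein. In 18 pairs at least 1 stretch of 50 bases was the same in both copies, and such stretches made up 80.99% of RPL1, 72.7% of RPL4, 60.9% of RPL11, 56.9% of RPL7 and 42.1% of RPL14. RSEM, the program the authors used, divides reads that match both copies by a statistical model, so values of single copies of these pairs are uncertain. The first 90 coding bases of 3 pairs (R64, coding strand) show this range, with bases that differ between the copies in capitals. RPL1A starts at chrXVI:135790-135879 (plus strand) and RPL1B at chrVII:254641-254730 (plus). RPL14A starts at chrXI:431906-431995 (plus) and RPL14B at chrVIII:104277-104366 (plus). RPL15A starts at chrXII:202501-202590 (minus) and RPL15B at chrXIII:510259-510348 (minus). The count of differing bases in these stretches is 2 for RPL1, 8 for RPL14 and 5 for RPL15.
RPL1A: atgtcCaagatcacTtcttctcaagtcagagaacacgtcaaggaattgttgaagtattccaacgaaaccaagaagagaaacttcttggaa
RPL1B: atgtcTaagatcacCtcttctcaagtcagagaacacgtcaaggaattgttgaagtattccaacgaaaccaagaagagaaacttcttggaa
RPL14A: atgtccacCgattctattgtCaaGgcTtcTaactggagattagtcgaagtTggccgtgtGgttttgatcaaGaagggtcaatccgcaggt
RPL14B: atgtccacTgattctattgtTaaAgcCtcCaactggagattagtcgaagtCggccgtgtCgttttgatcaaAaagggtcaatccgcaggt
RPL15A: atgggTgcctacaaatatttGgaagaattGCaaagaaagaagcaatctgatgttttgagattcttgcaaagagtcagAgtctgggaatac
RPL15B: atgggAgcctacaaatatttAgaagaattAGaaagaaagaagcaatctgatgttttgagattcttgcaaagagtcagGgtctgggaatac

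In exponentially growing WT haploids (3 libraries) the most abundant member was RPL32 (YBL092W, chromosome II), at 4434 ± 111 TPM (SD). It was followed by RPL10, which joins the subunit last in its maturation, at 3937 ± 163 TPM, and by RPL31A at 3688 ± 147 TPM. RPL3, near the peptidyl transferase centre, was at 3571 ± 145 TPM. Single-copy genes took 5 of the first 6 places, and all 7 were among the first 18 of the 57. The lowest places went to B copies: RPL18B (561 ± 7.14 TPM), RPL9B (448 ± 23.1 TPM), RPL7B (437 ± 14.1 TPM), RPL22B (218 ± 6.89 TPM) and RPL15B (38.5 ± 4.97 TPM, YMR121C). Of the 56 pairs of neighbours in this order, 38 lay closer together than the larger of their SDs, so the fine order is not resolved. RPL15B stood below RPL22B by far more than either SD.

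The balance between copies was measured as the share of the A copy in the summed TPM of A and B. In 2N of exp1 to exp3 (mean ± SD, n = 8) pairs with a large share of A included RPL15 (98.5 ± 1.5%), RPL7 (91.3 ± 3.7%) and RPL22 (87.5 ± 3.9%). The smallest shares of A were 26.0 ± 5.5% for RPL8, 34.6 ± 3.4% for RPL16, 35.1 ± 5.8% for RPL26 and 38.2 ± 3.6% for RPL13. Over all 81 groups, A was above 50% of the pair in every group for 5 pairs, among them RPL7, RPL15, RPL17 and RPL31, and in no group for 3 (RPL2, RPL8, RPL13). The other 17 pairs crossed 50%. The widest ranges of group means were those of RPL14 (12.0% in WT at 18 h to 86.2% in A21 of exp1), RPL1 (19.2% in A21 of exp1 to 82.6% in WT at 18 h), RPL33 (27.3% in A21 of exp3 to 87.9% in WT at 22 h), RPL9 (34.9% in WT at 18 h to 94.4% in A35 of exp5) and RPL22 (39.8% in A22 of exp2 to 97.5% in A23 of exp1). The low ends of RPL33 and RPL22 each rest on 1 library in which the A copy was listed at 0, which can be a failed estimate. The other library of that group had a share of 54.5% for RPL33 and 79.6% for RPL22. In A23 of exp1 the share of RPL22 was 100% in the library where RPL22B was listed at 0, and 95.0% in the other. In most of these the late time course marked 1 end of the range. Shares also differed between sets: in 4 strains sequenced both ways, the median pair differed by 3.23 to 5.43 percentage points between poly(A) and total RNA libraries, and 6 or 7 pairs by over 10 points. These libraries also came from different experiments, so library type and experiment cannot be told apart.

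**Figure D1:**
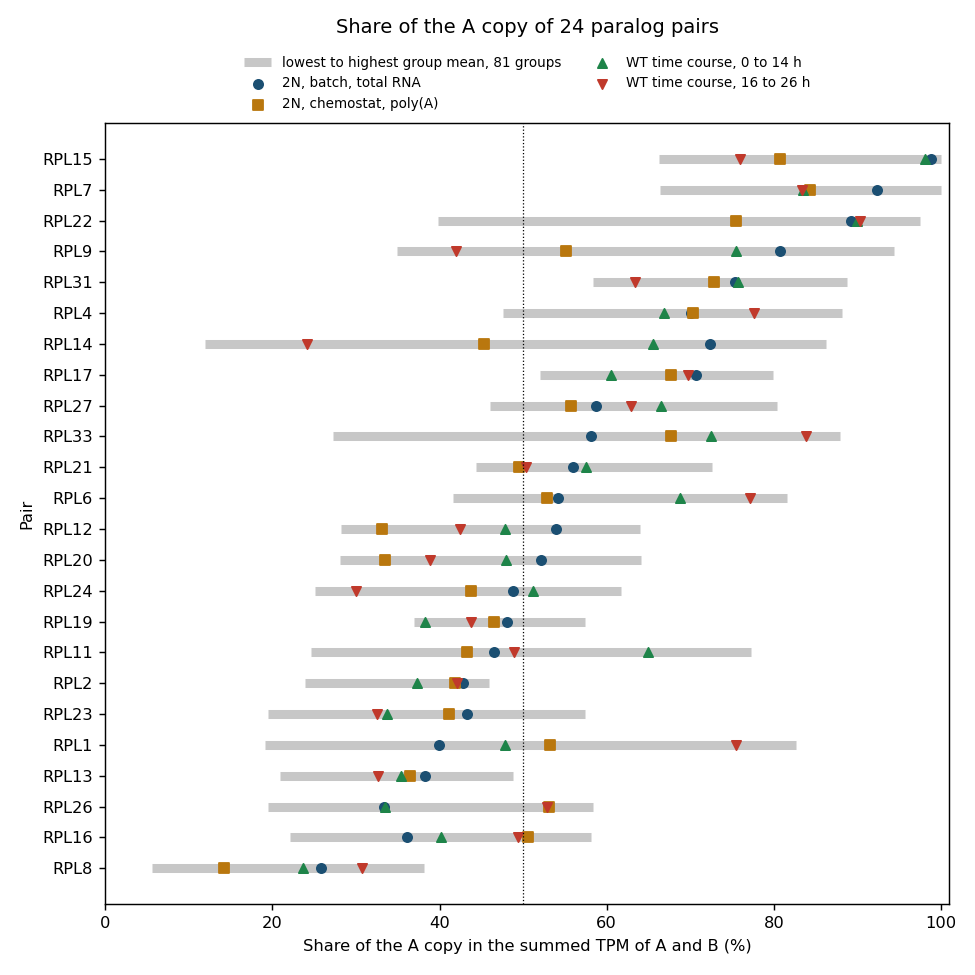
Share of the A copy (x axis, % of summed A and B TPM) for 24 pairs (rows, ordered by their mean in 2N of exp1 to exp3); symbols are medians over libraries of a set and grey bars run from the lowest to the highest of 81 group means. RPL15 and RPL7 sit at the A end and RPL8 at the B end, while the red triangles (16 to 26 h) of RPL14, RPL9 and RPL1 lie far from the green ones (0 to 14 h).

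Letters of known regulatory motifs were then looked for upstream of the members. In a window of 300 bases that begins 400 bases before the start codon, the Rap1 consensus searched (either strand, with a match in RPL25 shown in capitals) was found in 9 of 57 members (15.8%), against 1.68% of all 6007 genes searched. GACGCA, a motif bound by Fhl1, was in 13 members (22.8%) against 6.84% of all genes. The RRPE motif AAAAATTT was in 9 members (15.8% against 15.1%), and the PAC motif GATGAG in 6 (10.5% against 18.4%). Matches of different motifs were counted separately, and overlaps between them were not removed. A Rap1 match was in both copies of 1 pair, in A only of 3, in B only of 3 and in neither of 18. Windows are given for RPL15A and RPL15B, whose levels differed most and whose balance moved most at 16 h, and for RPL25, which holds both motifs. Capitals mark matches to the Rap1 or Fhl1 letters: RPL15A (chrXII:202691-202990, minus strand) has 1 Fhl1 match, RPL15B (chrXIII:510449-510748, minus) has none, and RPL25 (chrXV:79948-80247, plus) has 1 of each. All are R64 sequence as given by RefSeq.
RPL15A: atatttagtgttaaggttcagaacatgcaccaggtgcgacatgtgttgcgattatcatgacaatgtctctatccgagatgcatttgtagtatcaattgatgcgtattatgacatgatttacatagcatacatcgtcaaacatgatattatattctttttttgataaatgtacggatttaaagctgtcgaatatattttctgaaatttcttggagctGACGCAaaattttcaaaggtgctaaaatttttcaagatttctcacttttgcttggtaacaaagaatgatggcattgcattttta
RPL15B: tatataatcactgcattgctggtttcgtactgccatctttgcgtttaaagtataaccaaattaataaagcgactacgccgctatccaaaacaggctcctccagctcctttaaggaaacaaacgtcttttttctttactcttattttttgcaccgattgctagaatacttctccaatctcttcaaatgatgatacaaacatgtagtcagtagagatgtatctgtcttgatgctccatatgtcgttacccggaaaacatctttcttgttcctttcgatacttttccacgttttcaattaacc
RPL25: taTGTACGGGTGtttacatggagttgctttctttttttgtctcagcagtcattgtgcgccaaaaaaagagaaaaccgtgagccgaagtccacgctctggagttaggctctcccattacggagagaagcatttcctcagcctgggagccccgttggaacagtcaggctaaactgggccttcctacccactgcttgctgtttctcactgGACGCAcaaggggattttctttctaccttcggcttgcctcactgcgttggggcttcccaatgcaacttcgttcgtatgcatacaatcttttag

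In batch culture, aneuploid strains had less RNA of several large subunit genes than 2N did. Over the mean of 10 strains against 2N, 14 of 56 members tested were lower and none was higher, against 4.19% of all 3152 genes tested that were lower and 10.0% that were higher (limma, Benjamini-Hochberg adjusted p under 0.05). RPL15B did not pass the filter on low values. The median member changed by -0.18, against 0.05 for the median of all genes. The members together made up 4.62 to 8.16% of summed TPM in aneuploid libraries (median 6.53%) and 6.05 to 8.58% in 2N libraries (median 8.09%), so the groups overlapped. The mean in 2N was 7.87% in exp1, 8.18% in exp2 and 6.75% in exp3, so these pooled medians also carry differences between experiments. In bulk RNA, fewer transcripts per cell and a different mix of cells cannot be told apart.

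RPL2A (YFR031C-A, chromosome VI), which with RPL2B encodes a protein next to the catalytic centre, showed the most even drop. It ran from 55.5 to 118 TPM in the 36 aneuploid libraries (median 86.2 TPM) and from 112 to 151 TPM in the 8 2N libraries (median 131 TPM). The 2 sets touched only where A23 of exp3 (118 TPM) passed the lowest 2N libraries. TPM ranges here and below pool exp1 to exp3, whose scales differ. Summed TPM in 2N was 9.37 to 9.65% of the fixed total in exp3 and 5.03 to 6.90% in exp1 and exp2. In the limma fit, with experiment as a term, the log2 change of RPL2A was -0.61 (SE 0.08, adjusted p = 3.52e-07). It dropped in all 10 strains, 8 of them called, from -0.36 in A1 to -0.87 in A21. RPL2B, its paralog on chromosome IX, ran from 106 to 273 TPM in aneuploid libraries and from 142 to 235 TPM in 2N libraries, and the balance of the pair moved away from A by -0.58 (SE 0.09, adjusted p = 1.03e-05).

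RPL8A (YHL033C, chromosome VIII) fell in 3 of the 10 strains. It was at 4.03 to 25.9 TPM in A19, at 8.99 to 16.9 TPM in A23 and at 9.87 and 6.87 TPM in A35, against 34.8 to 62.7 TPM in 2N. These 3 strains lay wholly below 2N. The changes were -1.66 in A19, -1.65 in A23 and -2.06 in A35 (adjusted p = 3.0e-06, 7.5e-08 and 5.8e-05), while the other 7 ranged from -0.26 to -0.02 and none was called. Over all 10 strains the mean change was -0.65 (SE 0.16, adjusted p = 0.00276). In exp2 alone RPL8A was not called (-0.59, adjusted p = 0.179). RPL7B (YPL198W, chromosome XVI) was listed at 0 in many total RNA libraries: 0 and 0 TPM in A18, and 0, 0, 0, 0, 4.55 and 0 TPM in A20, against 4.72 to 22.8 TPM in all 8 2N libraries. An exact 0 can be a failed estimate. Of 10032 values of members, 31 were listed at 0, in 5 members, and 22 of them were of RPL7B (21 in the 62 total RNA libraries). The mean change of RPL7B was -1.71 (SE 0.45, adjusted p = 0.00712). It was not called in exp2 alone (adjusted p = 0.63) or exp3 alone (adjusted p = 0.119). RPL22B (YFL034C-A, chromosome VI) changed by -0.89 (SE 0.24, adjusted p = 0.0101), with 0 to 5.59 TPM in A19 and A23, against 9.45 to 22.3 TPM in 2N. It was not called in exp2 alone (adjusted p = 0.342) or exp3 alone (adjusted p = 0.537).

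Among the single-copy genes RPL3 (YOR063W) and RPL5, the carrier of 5S rRNA into the ribosome, fell. RPL3 changed by -0.32 (SE 0.06, adjusted p = 0.000201) and RPL5 by -0.24 (SE 0.06, adjusted p = 0.00649). In exp1 alone neither was called (adjusted p = 0.078 and 0.080). RPL5 was also not called in exp2 alone (adjusted p = 0.259) or with chromosome centring (-0.18, adjusted p = 0.227). RPL3 was at 102 to 201 TPM in aneuploid libraries (median 149 TPM) and 145 to 233 TPM in 2N libraries (median 174 TPM), an overlapping range. The other 5 were not called: RPL28 changed by -0.29, RPL30 by -0.19, RPL10 by -0.13, RPL32 by -0.05 and RPL25 by 0.01. Other called members included RPL4B, RPL9B, RPL13A, RPL14B, RPL15A, RPL21B and RPL23B, between -0.28 and -0.56. In 4 of 24 pairs tested the copies moved unequally, against 14.2% of all genes called for a change. These were RPL7 (1.67, toward A), RPL21 (0.42, toward A), RPL2 (-0.58, toward B) and RPL26 (-0.52, toward B). RPL26 was near the threshold: it was not called with a replicate block (adjusted p = 0.054), with chromosome centring (adjusted p = 0.141), in any single experiment, or in 8 of the runs that left out 1 library (adjusted p from 0.051 to 0.129). RPL21 was not called with chromosome centring (0.21, adjusted p = 0.223) or in any single experiment. The pair RPL7 was not called in exp2 or exp3 alone (adjusted p = 0.730 and 0.122), nor RPL2 in exp3 alone (adjusted p = 0.078).

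**Figure D2:**
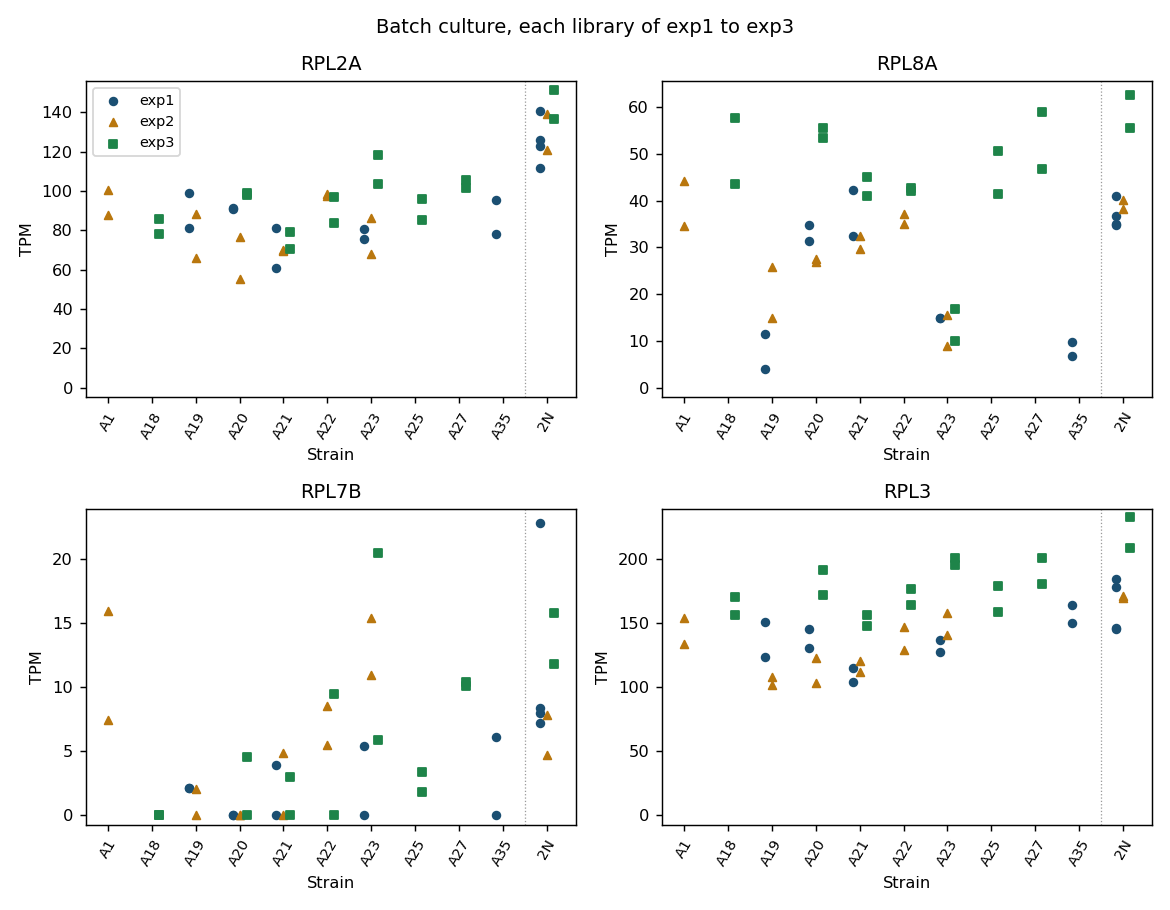
TPM (linear y axes) of RPL2A, RPL8A, RPL7B and RPL3 in each library of exp1 to exp3, by strain (x axis), with 2N on the right of the dotted line. RPL2A is lower in nearly every aneuploid library, RPL8A in A19, A23 and A35, and RPL7B is at 0 in both A18 and 5 of 6 A20 libraries, while RPL3 overlaps with 2N.

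The number of members called, in either direction, differed between strains roughly as the number of all genes did. It was 29 of 56 in A21 (31.6% of all genes tested), 28 in A23 (29.4%), 24 in A20 (24.1%), 19 in A22 (14.4%), 16 in A19 (13.2%), 12 in A18 (4.98%), 6 in A35 (3.36%), 5 in A27 (8.53%), 3 in A25 (2.13%) and 2 in A1 (2.00%). All 5 called in A27 were higher and 6 of the 28 in A23 were, so the direction was not shared by every strain. Other genes of the ribosome showed similar counts: 3 of 24 other large subunit genes and 16 of 57 small subunit genes were lower, and 0 of either was higher. Of members with an intron 8 of 37 were lower, and of those without 6 of 19 tested. 2N is 1 strain. With strain as a random block, 0 members and 0 pairs were called, as were nearly no other genes (1 in all). Within experiments, 12 members were lower in exp1, 2 in exp2 and 9 in exp3, with 0 higher in each. Of all genes, 272 of 3038, 143 of 3042 and 431 of 3325 were called there in either direction.

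The balance of the pairs moved with the RNA level of the other genes on each copy's chromosome, which stands in here for DNA copy number, which was not measured. In exp1, exp2 and exp3 a chromosome was counted as shifted if the median of its other genes moved by 0.25 or more in every library of a strain. The chromosomes of the 2 copies differed in state (up, down or not shifted) in 63, 51 and 66 strain and pair combinations. Pairs with 1 copy up and the other down were counted with those where only 1 was shifted. The balance moved toward the copy on the chromosome with the higher level in 54, 40 and 63 of these combinations. The median size of the change was 0.72, 0.63 and 0.69 where the states differed, and 0.30, 0.31 and 0.27 where neither chromosome was shifted. Across all combinations the change in balance correlated with the difference between the chromosome shifts (Pearson's r = 0.63, 0.61 and 0.63 over 125, 150 and 175 points, which share strains, libraries and the 2N mean). In the chemostat r was 0.53, with 59 of 71 in the direction of the chromosome levels. In poly(A) libraries of exp5 and exp6, with shifts taken against the mean of 8 strains, r was 0.73 and 0.68, with 67 of 72 and 63 of 70 in that direction.

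Strains sequenced by poly(A) selection without 2N allowed the copies to be followed against chromosome levels in more detail. In the 8 strains common to exp5 and exp6, 56 of 57 members (all but RPL6B) and 24 of 25 pairs (all but RPL19) differed among strains. So did 96.1% of all genes tested, so this says little of the members. With each chromosome centred on its own median, 55 members and 18 pairs were still called, as were 4718 of all 5421 genes tested. Over the 12 strains of exp5, the level of 49 of 50 paired members correlated positively with the shift of their own chromosome, with a median r of 0.89 and a median slope of 1.00 when both chromosomes were fitted. The median r with the chromosome of the other copy was -0.01. For the 7 single-copy genes the median r with their own chromosome was 0.73. Over the 8 strains of exp6 these medians were 0.76, 0.16 and 0.51. They were lower over the 9 strains of the chemostat, where r with the own chromosome was positive in 36 of 50 members, with medians of 0.32 (own chromosome), 0.06 (chromosome of the other copy) and 0.16 (single-copy genes) and a median slope of 0.63. These correlations are a description, since strains share chromosome shifts, and A32 and A34 had nearly the same shifts as each other.

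A few members did not follow their own chromosome, or had strains far below the others. They are described because of that, after their values were seen. RPL7B, on chromosome XVI, had the largest F statistic of all members between strains (adjusted p = 3.65e-26), followed by RPL18B, RPL9B and RPL27B (adjusted p = 1.78e-25, 3.92e-22 and 2.2e-19). In exp5 RPL7B was at 827 TPM in A1, 644 TPM in A34, 644 TPM in A38, 600 TPM in A32 and 461 TPM in A26, and in those strains chromosome VII, which carries RPL7A, was shifted by -0.13 to -0.38 relative to the mean of the strains. It was at 158 TPM in A30, 107 TPM in A35, 99.1 TPM in A33, 91.1 TPM in A36, 88.2 TPM in A29, 82.6 TPM in A28 and 79.1 TPM in A24, where chromosome VII was shifted by 0.12 to 0.32. No strain lay between. RPL7A ran from 2010 to 3278 TPM over the same strains. In exp6 RPL7B was at 742.5, 739, 685 and 515 TPM in A32, A34, A38 and A26, and at 215, 159, 99.4 and 86.6 TPM in A30, A28, A29 and A33, so each strain kept its side.

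RPL9B, on chromosome XIV, divided the same strains, and its paralog RPL9A (YGL147C) also lies on chromosome VII. In exp5 it was at 852, 801, 773, 751 and 714 TPM in A1, A26, A34, A32 and A38. It was at 309, 299, 266, 263, 249, 229 and 212 TPM in A33, A24, A29, A30, A36, A35 and A28. In exp6 it was at 545 to 802 TPM in A38, A34, A32 and A26, and at 188 to 222 TPM in A28, A29, A33 and A30. RPL9A ran from 2359 TPM in A26 to 3926 TPM in A24 of exp5. The shift of chromosome XIV did not order RPL9B: A24, at 299 TPM, had the largest shift of XIV (0.44) and A38, at 714 TPM, the smallest (-0.29). In phosphate limitation the pattern was less clear: RPL7B had 126 and 264 TPM in A23 and 128 and 261 TPM in A38, but also 29.6 and 213 TPM in the 2 libraries of A34, against 61.1 and 46.9 TPM in 2N.

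RPL18B was low in 2 strains of exp5 and RPL8A in 1. RPL18B (YNL301C, chromosome XIV) was at 220 TPM in A38 and 352 TPM in A36 of exp5, against 660 to 1269 TPM in the other 10 strains. In exp6 A38 again had the lowest level, 185 TPM, against 531 to 1105 TPM in the other 7 strains. RPL18B correlated with the shift of its own chromosome (r = 0.69 in exp5, 0.60 in exp6 and 0.72 in the chemostat). A38 had the lowest shift of chromosome XIV in exp5. RPL8A was at 336 TPM in A35 of exp5 and at 737 to 1206 TPM in the other 11. A35 had chromosome XII, which carries RPL8B, shifted up by 0.54, and RPL8B was at 4035 TPM there, against 2331 to 3163 TPM elsewhere. RPL8A was also low in A35 of exp1, where chromosome XII was shifted by 0.37. In A19 and A23, the other 2 strains with low RPL8A, chromosome XII was also up but did not reach 0.25 in every library: it was shifted by 0.24 in exp1 and 0.06 in exp2 in A19, and by 0.23, 0.25 and 0.22 in exp1, exp2 and exp3 in A23. In the 7 strains where RPL8A was not called, the shift of XII lay between -0.32 and -0.02. The sign was not shared by all sets. Over strains RPL8A correlated with the shift of XII at r = -0.61 in exp5, where the rank correlation was 0.28. In exp6, which lacks A35, r was 0.60, and in the chemostat it was 0.37. With its own chromosome VIII, RPL8A had r = 0.38 in exp5, 0.74 in exp6 and 0.16 in the chemostat. RPL27B, the fourth by F statistic, followed its own chromosome, at 2390 and 2396 TPM in A34 and A32 (shifts of 0.49 and 0.45) and 1091 TPM in A30 (-0.24) of exp5.

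**Figure D3:**
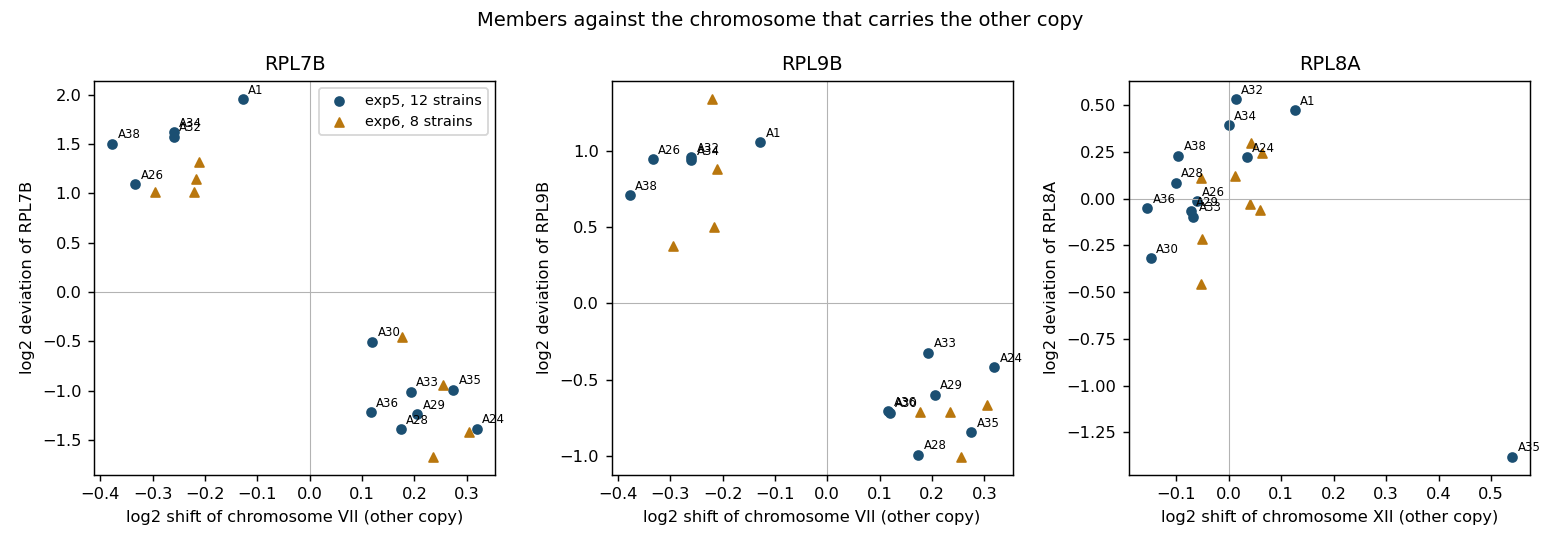
Deviation of RPL7B, RPL9B and RPL8A from the mean of the strains (y axes, log2) against the shift of the chromosome that carries the other copy (x axes, log2 median of other genes) in exp5 (circles, 12 strains, named) and exp6 (triangles, 8 strains). RPL7B and RPL9B are high in all strains with chromosome VII below 0 and low in all strains with it above 0, and RPL8A is lowest in A35.

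In phosphate-limited chemostats, where growth rate is set by the pump, 0 of 57 members were called over the mean of 9 aneuploid strains against 2N by limma (2 at an unadjusted p under 0.05, RPL15B at -0.43 and RPL22B at -0.73). Of all 5674 genes, 2.89% were higher and 13.1% lower. The median member changed by -0.02 against -0.17 for all genes. Members made up 0.99 to 5.83% of summed TPM in aneuploid libraries, against 2.33 and 2.66% in 2N, and the 2 libraries of an aneuploid strain could lie far apart. RPL9A, for example, was at 549 and 172 TPM in A20 and at 88.8 and 307 TPM in A38, against 190 and 126 TPM in 2N. The single-copy genes changed by -0.43 (RPL30) to 0.31 (RPL3), and none was called. In the balance of copies, 2 of 25 pairs were called. RPL8 moved toward A (1.14, SE 0.16, adjusted p = 0.00057): RPL8A was at 31.98 to 384 TPM in aneuploid libraries, against 88.0 and 68.8 TPM in 2N, and RPL8B at 105.5 to 1202 TPM, against 491 and 451 TPM. RPL16 moved toward B (-0.75, SE 0.15, adjusted p = 0.00529). Both 2N libraries and those of A20, A21 and A23 share 1 code prefix in their titles and those of the other 6 strains another. With the prefix of 2N alone RPL16 was not called (-0.53, adjusted p = 0.099), and 2 pairs were called, both toward A. With strain as a random block neither pair was called, and RPL16 was not called when either 2N library was left out (adjusted p = 0.094 and 0.057).

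The chemostat and batch changes were compared in the 5 strains grown in both ways (A18, A20, A21, A22 and A23). The difference between them was called in 0 of 57 members by limma (3 at an unadjusted p under 0.05) and 0 of 25 pairs, against 2.67% of 5064 genes. Medians were 0.25 for members and -0.13 for all genes. Summed TPM differed between these settings as well (85.1 to 98.9% of the fixed total in the chemostat), so library type and way of growth cannot be told apart.

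In the pooled populations most members changed, and the 2 protocols gave opposite directions. Under the Tsai protocol, 54 of 57 members were higher in the aneuploid than in the euploid population and 2 were lower, against 41.0% of 5699 genes higher and 34.7% lower. The median member changed by 0.56 and the median gene by 0.05. Members made up 9.52 to 9.72% of summed TPM in the aneuploid population and 6.64 to 6.87% in the euploid one. Under the dilution protocol, 51 of 57 were lower and 2 higher, against 15.1% of all genes lower and 60.9% higher. The median member changed by -0.35 and the median gene by 0.27. Members then made up 8.55 to 8.87% in the aneuploid population and 10.6 to 10.7% in the euploid one. WT haploids in exponential growth had 11.7 to 12.1%. The labels give 1 growth description for both protocols, and what sets them apart is not known here.

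Among single-copy genes RPL32 was at 4443, 4512 and 4631 TPM in the Tsai aneuploid population, against 2500, 2462 and 2481 TPM in the euploid one, a change of 0.87 (SE 0.03, adjusted p = 1.45e-14). Under the dilution protocol it was at 4269, 4337 and 4250 TPM in the aneuploid and 4174, 4162 and 4299 TPM in the euploid population, and was not called (0.02, SE 0.03, adjusted p = 0.4). RPL32 thus differed in the euploid populations of the protocols more than in the aneuploid ones. RPL25, which binds near the exit of the nascent peptide, was at 2168, 2235 and 2197 TPM in the Tsai aneuploid population, against 1800, 1757 and 1762 TPM in the euploid one (0.31, SE 0.03, adjusted p = 1.52e-07). Under dilution it was at 1943, 1944 and 1982 TPM in the aneuploid population and 2811, 2741 and 2900 TPM in the euploid one (-0.53, SE 0.03, adjusted p = 5.04e-10). All 7 single-copy genes rose under the Tsai protocol, from 0.29 (RPL30) to 0.87 (RPL32), and 5 fell under the dilution protocol, from -0.23 (RPL5) to -0.53 (RPL25). RPL10 (-0.07, adjusted p = 0.0534) and RPL32 were not called there.

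Largest among the rises under the Tsai protocol were those of RPL23A (0.95, SE 0.04), RPL32, RPL9A (0.86, SE 0.04) and RPL6B (0.85, SE 0.05), with adjusted p of 2.73e-13, 1.45e-14, 1.18e-12 and 1.5e-11. RPL23A was at 1266, 1268 and 1318 TPM in the aneuploid population, against 685, 648 and 656 TPM in the euploid one. RPL15B and RPL8A were the 2 that fell, by 0.19 and 0.16 on the log2 scale (adjusted p = 0.0307 and 0.00272), and RPL9B was not called (0.00). RPL8A had 502, 477 and 472 TPM in the aneuploid population, against 549, 522 and 545 TPM in the euploid one. The call on RPL15B rests on single libraries: it was lost in 4 of the runs that left out 1 (adjusted p from 0.058 to 0.12).

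Among the largest falls under the dilution protocol were those of RPL8A (-0.94, SE 0.04), RPL9B (-0.71, SE 0.04) and RPL2A (-0.59, SE 0.03), with adjusted p of 6.46e-12, 1.91e-10 and 1.43e-10. RPL8A was at 419, 435 and 403 TPM in the aneuploid population, against 795, 798 and 828 TPM in the euploid one. RPL9B was at 255, 268 and 256 TPM, against 429, 411 and 433 TPM. RPL15B rose (0.53, SE 0.08, adjusted p = 7.53e-06), at 58.8, 60.8 and 65.2 TPM in the aneuploid population, against 41.2, 43.3 and 42.6 TPM in the euploid one, and so did RPL18B (0.23, SE 0.04, adjusted p = 8.2e-05), at 349, 343 and 351 TPM against 293, 300 and 299 TPM. Centring each library on its median turned the change of RPL18B to -0.02 and that of RPL32 to -0.22.

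Many pairs were called for unequal change of their copies in the populations, where most genes were called for a change as well. Under the Tsai protocol 21 of 25 pairs were called, 14 toward A and 7 toward B, against 75.7% of all genes. RPL8 moved toward B (-0.998, SE 0.04) and RPL2 toward B (-0.30, SE 0.04), while RPL9 (0.85, SE 0.05), RPL15 (0.62, SE 0.07) and RPL23 (0.41, SE 0.03) moved toward A. Under dilution 17 pairs were called, 10 toward A and 7 toward B, against 75.9% of all genes. RPL15 (-0.77) and RPL8 (-0.71) were among those toward B, and RPL21 (0.47), RPL9 (0.36) and RPL27 (0.31) among those toward A. The protocols share no library. With 21 and 17 of 25 pairs called, much of the overlap between them follows from these counts. The overlap and shared direction over all genes were not worked out. Of the pairs called, 16 were called in both, which is 76.2% of the Tsai and 94.1% of the dilution pairs. In direction, 14 of the 16 moved the same way. The exceptions were RPL15, toward A under Tsai and toward B under dilution, and RPL6 (-0.21 under Tsai and 0.11 under dilution). Over all 25 pairs, called or not, 18 had the same sign under both protocols. So the level of the family as a whole differed in direction between the protocols, while most pairs kept the direction of their imbalance, RPL8 toward B and RPL9 and RPL21 toward A.

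**Figure D4:**
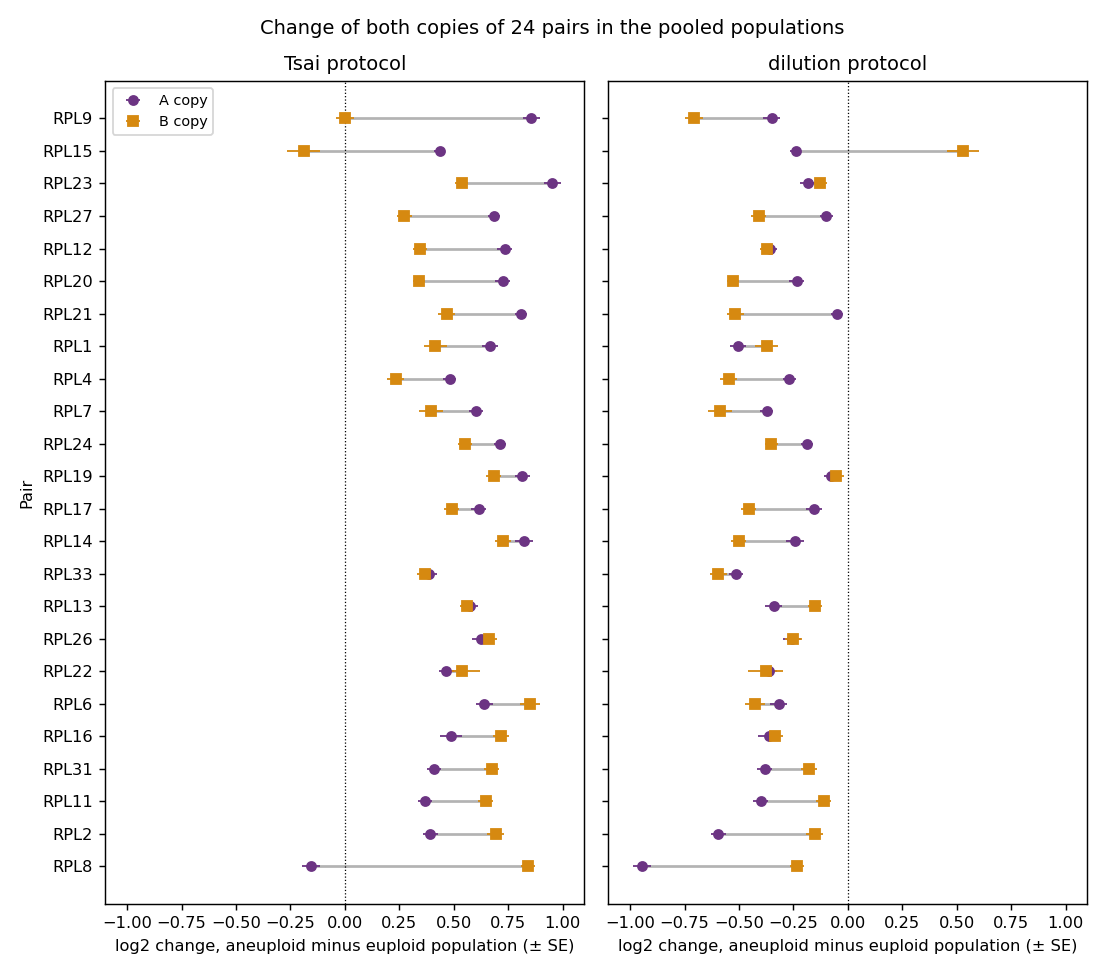
Change (x axes, log2, aneuploid minus euploid population, with SE, n = 3 libraries each) of the A copy (circles) and B copy (squares) of 24 pairs (rows, ordered by A minus B under the Tsai protocol). Most points lie right of 0 under the Tsai protocol and left of 0 under dilution, while the order of the copies within RPL8, RPL9 and RPL21 is the same in both panels.

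The test of the difference between protocols was called for all 57 members, 56 higher under Tsai and only RPL15B lower, against 24.7% of all genes higher and 50.4% lower. The median was 0.86 for members and -0.26 for all genes. Unequal change of the copies itself differed between protocols in 15 of 25 pairs, against 75.0% of all genes called for a difference. It differed most for RPL15 (1.39, SE 0.10, adjusted p = 6.62e-10). Other parts of the ribosome moved the same way. Of 24 other large subunit genes 24 were higher under Tsai and 21 lower under dilution, and of 57 small subunit genes 56 and 52. All 5 chaperones that bind single large subunit proteins as they are made rose under Tsai: SQT1, the chaperone of Rpl10, by 2.28 (SE 0.07), SYO1, which carries Rpl5 and Rpl11, by 1.88 (SE 0.08), RRB1, the chaperone of Rpl3, by 1.49 (SE 0.05), ACL4, that of Rpl4, by 1.22 (SE 0.05), and BCP1, that of Rpl23, by 0.82 (SE 0.05). Under dilution 4 of them fell, SYO1 most (-0.68, SE 0.08), and SQT1 rose by 0.20 (SE 0.07). Of 8 tested regulators, 4 rose and 3 fell under Tsai, and 5 rose and 2 fell under dilution. TOD6, a repressor of ribosome biogenesis genes, rose by 2.07 (SE 0.06) under Tsai and fell by 0.34 (SE 0.06) under dilution.

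In the WT time course the members stayed high for 14 h and then dropped. They made up 15.6 and 16.0% of summed TPM at 0 h, 11.7 and 12.2% at 14 h, 1.02 and 1.06% at 16 h, 0.61 to 0.71% from 18 to 24 h and 1.12 and 1.17% at 26 h. Between 0 to 4 h and 8 to 12 h, 0 members were called by limma (0 at an unadjusted p under 0.05), against 1.16% of 5444 genes. At 16 h against 14 h, 56 of 57 members were lower, against 13.6% of all genes lower and 13.8% higher. The median member changed by -3.71 and the median gene by 0.23. The step between these times was known from earlier results of these data.

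Copies with the largest drops were RPL14A (-5.05, SE 0.53), RPL1B (-4.54, SE 0.54), RPL33B (-4.44, SE 0.58) and RPL21A (-4.36, SE 0.53), with adjusted p of 5.24e-11, 2.07e-09, 1.82e-08 and 3.67e-09. RPL14A was at 50 and 70.35 TPM at 16 h, against 2251 and 1785 TPM at 14 h. Single-copy genes changed by -2.60 (RPL3) to -3.81 (RPL25), and RPL3 kept 370 and 267 TPM at 16 h, against 2139 and 1705 TPM at 14 h. RPL15B was the only member that did not drop (0.01): it was at 79.7 and 77.1 TPM at 16 h, against 84.0 and 72.2 TPM at 14 h. Its partner RPL15A was at 169.2 and 140 TPM at 16 h, against 2776 and 2184 TPM at 14 h. RPL15B had been at 41.4 to 84.0 TPM throughout 0 to 14 h, and it lay at 7.38 to 69.8 TPM from 18 to 26 h.

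In 6 of 25 pairs the copies dropped unequally at 16 h, against 27.4% of all genes called for a change. RPL15 moved toward B (-3.998, SE 0.48, adjusted p = 7.03e-09), as did RPL14 (-2.21, SE 0.60, adjusted p = 0.00405) and RPL9 (-1.44, SE 0.47, adjusted p = 0.0166). RPL1 (1.86, SE 0.51, adjusted p = 0.00445), RPL26 (1.42, SE 0.48, adjusted p = 0.022) and RPL33 (1.24, SE 0.48, adjusted p = 0.0494) moved toward A. RPL14B was at 148 and 115 TPM at 16 h, against 966 and 932 TPM at 14 h, so that it passed RPL14A. RPL1A was at 288 and 216 TPM at 16 h against 1642 and 1550 TPM at 14 h, and RPL1B at 92.4 and 51.2 TPM against 1837 and 1430 TPM. The share of A in RPL15 fell to 66.3% at 16 h, and it was 96.8 to 98.5% from 0 to 14 h. Of these calls only RPL15 held in every run that left out 1 library. Leaving out any library of 14 or 16 h left 2 or 3 pairs called, and scaling each library to the same total gave 10.

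**Figure D5:**
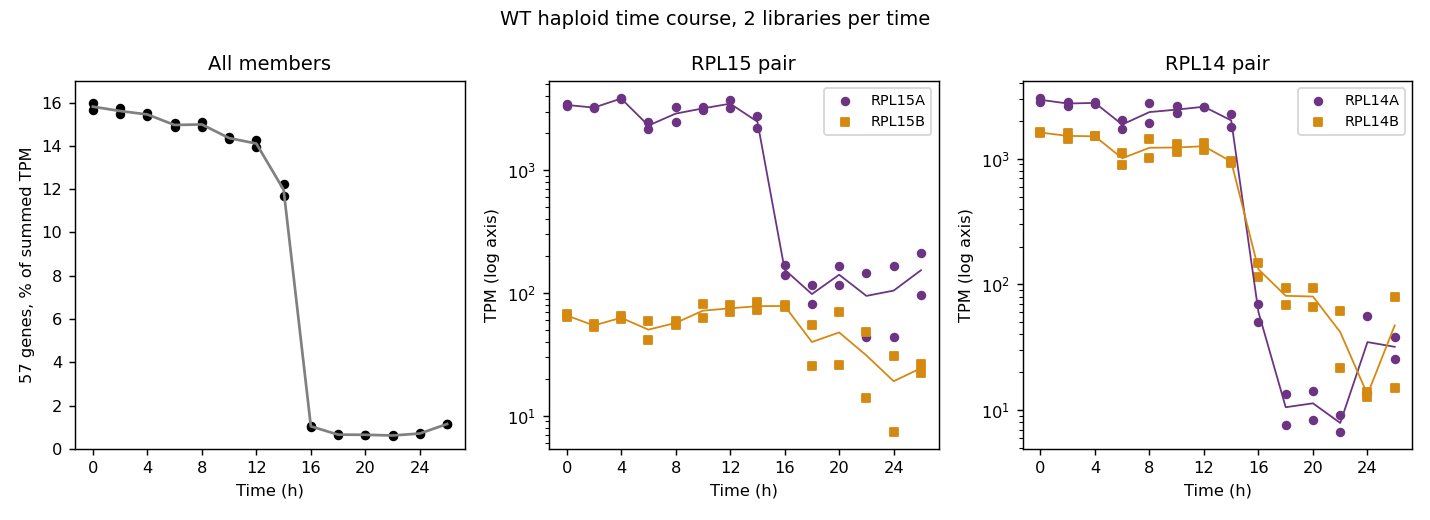
Members' summed share of TPM (left, linear y axis from 0) and TPM of both copies of RPL15 and RPL14 (middle and right, log y axes) against time in hours, with 1 point per library and lines through the means. The summed share drops between 14 and 16 h, RPL15B stays level across that step while RPL15A drops, and RPL14A falls below RPL14B.

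From 18 and 20 h to 22 to 26 h, 20 of 57 members were lower and 1 was higher, against 63.6% of all genes lower and 0.882% higher. The median gene changed by -0.93, more than the median member (-0.62), and the direction turned with the scaling: with TPM rescaled to the fixed total 29 members were higher and 3 lower, and with each library centred on its median 30 were higher and 1 lower. Without libraries whose TPM summed to under 30% of the fixed total, 7 were higher and 4 lower. Of all genes, 1822 of 5444 were called in either direction with rescaled TPM and 1960 with median centring. Without the libraries of low summed TPM it was 1470 of 5497. Leaving out 1 library gave 5 (without 20 h replicate 2) to 43 calls (without 24 h replicate 2), so no direction is given for the late levels. Counts of pairs moved less with that scaling (9 pairs called, and 12 under either scaling). RPL14 moved toward A (2.39, SE 0.39, adjusted p = 4.11e-05), with RPL14A at 6.69 to 55.8 TPM from 22 to 26 h, against 7.60 to 14.2 TPM at 18 and 20 h, and RPL14B at 12.7 to 79.5 TPM against 66.3 to 93.9 TPM. RPL12 (1.02) and RPL23 (1.00) also moved toward A, and RPL7 (-1.24), RPL6 (-1.12) and RPL1 (-0.88) toward B. The call on RPL7 rests on 20 h replicate 2, without which the change was -0.20 (adjusted p = 0.676), and it was also lost with rescaled TPM (adjusted p = 0.14) and median centring (adjusted p = 0.088). RPL1 was not called without 18 h replicate 2, 20 h replicate 1 or 22 h replicate 2 (adjusted p = 0.144, 0.146 and 0.067), nor RPL23 without 18 h replicate 1 (adjusted p = 0.06). Without 18 h replicate 2 there were 5.

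At 16 h the rest of the ribosome fell as well, with 23 of 24 other large subunit genes and 57 of 57 small subunit genes lower and 0 higher. Of the chaperones 4 of 5 fell, RRB1 by 2.65 (SE 0.55) most. Of 8 regulators 1 was called, DOT6, a repressor of ribosome biogenesis genes, which rose by 1.45 (SE 0.55, adjusted p = 0.0441). RAP1 changed by -0.40, FHL1 by -0.98, IFH1 by -0.59 and SFP1 by 0.73, and none of them was called.

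In NaCl-treated W303 cells the members made up 1.22 to 1.94% of summed TPM over 3 libraries, with no untreated W303 beside them. Their summed TPM was 14.0 to 20.5% of the fixed total. The haploid-specific genes had medians of 0.53 TPM (HO) to 3.34 TPM (STE4) there, so the haploid label was not matched by high levels of these genes. The share of A was 97.0 ± 2.0% for RPL15, 36.8 ± 2.3% for RPL8 and 50.4 ± 4.6% for RPL26 (SD, n = 3). RPL15 thus stayed near the A end in these cells, as it did in exponential WT S288C (98.8 ± 0.1%, n = 3), and not in 2N of the chemostat (77.8 and 83.8%) or in WT from 16 to 26 h (64.6 to 88.7%, n = 12). All of these sets are poly(A) libraries. They differ in strain, medium and the code prefix of their titles, which cannot be told apart here.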

How the data were processed

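RNA levels of 6692 genes in all libraries were read from the deposited table, whose values the authors gave as log2(TPM + 1). Per the submitters' processing notes, the tools and build were STAR 2.5.3a, RSEM 1.3.0 and sacCer3. Read depth is unknown, so no counting interval can be given. Groups came from sample titles. 2 libraries whose strain field differs from the title (A18 of exp4, replicate 2, and A24 of the chemostat, replicate 2) were kept by title, and the last time point is titled 26 h, with 28 in its code. The members, gene lists and tests were chosen with earlier results of these data known.

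Genes with a mean log2 value of at least 2 were fitted with limma 3.58.1 (trended empirical Bayes; R 4.3.3), and differences between the A and B copies were fitted beside them. Benjamini-Hochberg adjustment ran over all genes of a fit for members, and over genes and pairs together for pairs. Calls were made under 0.05. Fits held 44 (batch, experiment as a term), 20 (chemostat), 15 (populations), 28 (time course), 64 (chemostat against batch) and 40 libraries (exp5 and exp6). Fits were tested on simulated data. A chromosome's shift was the median change of its genes that passed the filter, relative to the median of all such genes. All ribosomal protein genes were left out of it. Genes named were the 4 most changed members and 3 most unequal pairs each way, plus single-copy genes, and for strain differences those of largest F. Coding and upstream sequences came from R64. Alternatives were other filters, pseudocounts, scalings, blocks, single experiments, chromosome centring and leaving out each library. Leaving out libraries of low summed TPM, and strain A32, was added after the data were seen. 1 member and its pair are counted but their own results are not reported here.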

Additional observations from a re-analysis of the deposited data

Results flagged for a closer look

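3 values of 2N in exp1 stood apart from the other libraries of that group of 4. The A copy of RPL22 held 80.5% of its pair in replicate 2, against 89.2 to 89.6% in the other 3 libraries. The A copy of RPL7 held 83.4% in replicate 1, against 91.6 to 93.1%. The members made up 6.05% of summed TPM in replicate 3, against 8.40 to 8.56%. Each value came from a different library. Chance alone sets 1 value apart in about 1 of 20 such groups.

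The change in the aneuploid relative to the euploid population differed between the Tsai and dilution protocols, by the limma test of the difference itself. Among the most changed members the difference, Tsai minus dilution on the log2 scale, was 1.28 for RPL6B, 1.23 for RPL14B, 1.21 for RPL9A, 1.17 for RPL1A and -0.72 for RPL15B. Among single-copy genes it was 0.91 for RPL3, 0.83 for RPL5, 0.76 for RPL10, 0.84 for RPL25, 0.74 for RPL28, 0.80 for RPL30 and 0.84 for RPL32. In the balance of pairs (A minus B) it was 1.39 for RPL15, 0.50 for RPL9, 0.47 for RPL23, -0.32 for RPL6, -0.29 for RPL8 and -0.20 for RPL16.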

How the results depend on the processing

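Of the alternatives for named members and pairs, 4005 kept their side of the threshold with no called result reversed. A further 119 lost a call, 18 gained one and 15 reversed. A change of sign in a result called in neither run was not counted as reversed. Causes were not tested. With strain as a random block, batch calls became 0 members and 0 pairs, and chemostat calls 0 pairs. exp2 alone gave 2 members and 1 pair, exp3 alone 9 members and 1 pair, and chromosome centring 2 batch pairs. Rescaled TPM gave 1 late growth member, 10 pairs at 16 h and 32 members from 18 and 20 h to 22 to 26 h. Median centring gave 10 pairs at 16 h. Without libraries of summed TPM under 30% (chosen after seeing the data) there were 11 pairs at 16 h and 11 members after it. A filter at 4 gave 1 member and 1 pair in the chemostat against batch comparison. Median centring reversed RPL18B (-0.023) and RPL32 (-0.22) under dilution. After 16 h, rescaling and centring reversed RPL5 (0.37 and 0.40), RPL10 (0.23 and 0.24), RPL25 (0.13 and 0.15), RPL28 (0.33 and 0.36), RPL30 (0.22 and 0.24) and RPL32 (0.48 and 0.49), and centring reversed RPL3 (0.0075).

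Leaving out 1 library gave these ranges of members and pairs called: batch 12 to 16 and 2 to 5, chemostat 0 to 1 and 1 to 3, Tsai 55 to 56 and 20 to 21, dilution 51 to 54 and 16 to 18, protocol difference 57 to 57 and 13 to 16, late growth 0 to 0 and 0 to 0, 16 h 55 to 56 and 2 to 8, after 16 h 5 to 43 and 5 to 11, chemostat against batch 0 to 1 and 0 to 1, and strains 54 to 57 and 24 to 24. 2 batch pairs were left without 2N exp1 replicate 1, A1 exp2 replicate 1 or 2N exp3 replicate 1. 1 chemostat member was called without A34 replicate 2, and 1 pair without either 2N library. 34 members were called after 16 h without 22 h replicate 1.

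Replicate numbers did not pair the libraries (median correlation of same-numbered libraries -0.04 to -0.01). With a replicate block, members and pairs called were 14 and 4 (batch, with 3 pairs toward A and 1 toward B), 0 and 2 (chemostat), 56 and 21 (Tsai), 53 and 17 (dilution), 57 and 15 (protocol difference), 0 and 0 (late growth), 56 and 5 (16 h), 19 and 9 (after 16 h), 0 and 0 (chemostat against batch), and 55 and 24 (strains). Unknown depth limits low members most, RPL7B, RPL15B and RPL22B in total RNA libraries.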
